A study of Cavia porcellus with 72 samples.

Results

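The AMPA receptor subunits GRIA1 to GRIA4 and the kainate receptor subunits GRIK1 to GRIK5 were followed in the hippocampus over 3 generations after prenatal exposure to a synthetic glucocorticoid (sGC). These 9 genes were taken by symbol from the 11446 genes present in the tables of all 3 generations. All 9 were listed in each table and passed the filter on low values in each generation.

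AMPA receptors are tetramers of GRIA subunits that open on binding glutamate and carry most fast excitatory transmission in the hippocampus, and their number at the synapse is raised or lowered during synaptic plasticity. GRIA2 keeps the channel largely closed to calcium after its transcript is edited. Kainate receptors are built from GRIK1 to GRIK3, which bind glutamate with low affinity, and from GRIK4 and GRIK5, which bind it with high affinity and need a low-affinity partner to form a working channel. In the hippocampus kainate receptors act at mossy fibre synapses and on interneurons.

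Pregnant Dunkin-Hartley guinea pigs (F0) received saline (control, named Veh in the study) or betamethasone, a long-acting sGC, at a dose of 1 mg/kg in 3 courses that began on gestational day 40 and ended on day 61. F1 animals were exposed in utero, F2 animals were fathered by F1 males and F3 animals by F2 males, in each case with untreated females bought for breeding, so that exposure came through the paternal line. All sequenced animals were juvenile females killed undisturbed on postnatal day 40, each from a different mother. RNA of the powdered right hippocampus was sequenced from 6 control and 5 sGC animals in F1, 6 and 6 in F2, and 6 and 7 in F3. In such bulk tissue, fewer cells of a type and less RNA per cell cannot be told apart.

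Levels of single genes are given as normalised values, which are deposited values per 1000000 of the scaled library total. Deposited totals ran from 13507449 to 19767033 over the 36 libraries. The deposited whole numbers were not the counts as sequenced. In each table, 1 weighted combination of the libraries on the log scale varied over genes by only 0.0103 (F1), 0.00986 (F2) and 0.0104 (F3) of the counting noise, where the next least variable combination reached 1.86, 1.51 and 1.63. Its spread was 1.09, 1.06 and 1.17 times that of rounding to whole numbers, and it was close to unrelated to treatment (r = -0.0061, 0.0055 and -0.0054). The tables thus lacked 1 factor of variation that sequenced counts would hold, and the step that took it out is not given in the sources used here. In F3, 79.7% of the squared weight of this combination lay on sGC animal 5. That animal deviated from its group by a root mean square of 0.0469 on the log2 scale, where the other libraries deviated by 0.0979 to 0.201, and its values are close to fixed by those of the other F3 animals. In F1, 58.4% lay on control animal 6, and in F2 the highest share was 32.8%, on control animal 3. The spreads and totals below are those of the adjusted values and may understate the spread of the sequenced counts.

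Library numbers in the labels run with the generations, except for sGC animals 4 and 5 of F1, 6 of F2, and 5 and 6 of F3, which carry the numbers 32 to 36. No control has such a number. The tissue label was checked against markers. Of 7 dentate granule cell markers 6 were present in each table, among them PROX1, the granule cell transcription factor, with group means of 101.7 to 127. Of 10 markers of excitatory hippocampal neurons 9 were present. All 9 markers of striatum, thalamus and neocortex were present too, with summed values of 169.9 to 268.9 over the libraries, so that presence alone does not separate the hippocampus from neighbouring tissue.

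In F3, GRIA1, the subunit that is inserted at synapses during potentiation, was lower in sGC than in control animals and was the only one of the 9 subunits that passed the test. Its normalised value in F3 controls ran from 1174 to 1318 with a median of 1245, and in F3 sGC animals from 1085 to 1214 with a median of 1132. All 7 sGC animals lay below the control mean and 6 of 7 lay below every control, while sGC animal 7, at 1214, lay inside the control range. The means were 1255 ± 52.3 (SD, n = 6) and 1134 ± 42.3 (SD, n = 7). The log2 fold change was -0.15 (SE 0.0379, 95% interval -0.23 to -0.06), a level that fell by 9.57%. The adjusted p-value was 0.0478 in limma with Benjamini-Hochberg adjustment over all genes tested. At this threshold 3.24% of the 11359 genes tested in F3 were called and 1.81% were called lower in sGC animals.

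The GRIA1 call lay close to the threshold. Leaving out sGC animal 5, whose values are nearly fixed by the others, gave a log2 fold change of -0.14 and an adjusted p of 0.0606 in limma. Leaving out any 1 animal kept the log2 fold change between -0.16 and -0.13, and the adjusted p stayed below the threshold in only 3 of 13 such fits, those without control 6, sGC 6 or sGC 7. The variance taken out with the factor cannot be restored from these files, so that the p-values may still be too small.

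GRIA2, the subunit that limits calcium entry, ran from 729 to 791 in F3 controls (median 747) and from 656 to 756 in F3 sGC animals (median 701). Of the 7 sGC animals 5 lay below every control. The means were 755 ± 22.6 (SD, n = 6) and 703 ± 37.1 (SD, n = 7), and the log2 fold change came to -0.10 (SE 0.0389). The adjusted p was 0.160, so that this difference did not pass the test.

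GRIA3, a subunit that pairs with GRIA2, had F3 control values of 159 to 182 (median 169) and F3 sGC values of 152 to 166.1 (median 161.997). The groups overlapped, although all 7 sGC animals lay below the control mean. The log2 fold change was -0.09 (SE 0.0367, adjusted p = 0.207). GRIA4, which is found in many interneurons, gave 39.6 to 63.0 in F3 controls (median 43.9) and 37.9 to 48.6 in F3 sGC animals (median 42.8). Control animal 1 was high at 63.0, and without it the log2 fold change moved from -0.09 to -0.01.

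Among the low-affinity kainate subunits, GRIK1 gave F3 control values of 26.7 to 33.7 (median 30.8) and F3 sGC values of 22.4 to 41.3 (median 27.8). The sGC values lay on both sides of the controls, with 3 animals below all of them and sGC animal 6 above, and the log2 fold change of -0.08 had an adjusted p of 0.761. GRIK2, the low-affinity subunit of the mossy fibre synapse, ran from 63.3 to 78.3 in F3 controls (median 72.9) and from 61.6 to 72.1 in F3 sGC animals (median 68.1), and its log2 fold change was -0.08 (adjusted p = 0.413). GRIK3, found in part at presynaptic sites, ran from 75.7 to 93.4 in F3 controls (median 82.1) and from 64.5 to 109 in F3 sGC animals (median 75.9). Here too sGC animal 6 stood highest and 3 sGC animals lay below every control, with a log2 fold change of -0.07 (adjusted p = 0.733). Without sGC animal 6 the log2 fold changes of GRIK1 and GRIK3 were -0.16 and -0.15, without sGC animal 7 both were -0.02, and neither subunit passed the test in either fit. The summed markers of striatum, thalamus and neocortex were highest of the F3 sGC group in sGC animal 6 (259.6, the others 169.9 to 238.0). So were the summed oligodendrocyte markers (2191, the others 1450 to 1924), while its excitatory neuron sum was lowest (8795, the others 9798 to 12373). The part of these markers in the subunit values was not tested.

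Of the high-affinity kainate subunits, GRIK4 gave 51.7 to 58.8 in F3 controls (median 57.9) and 50.05 to 56.6 in F3 sGC animals (median 53.0). The groups overlapped, with 6 of 7 sGC animals below the control mean, and the log2 fold change was -0.10 (SE 0.0431, adjusted p = 0.238). GRIK5, its close relative with a broader distribution in the brain, was the only subunit with a higher F3 mean in sGC animals. It ran from 210 to 242 in F3 controls (median 222) and from 216 to 253 in F3 sGC animals (median 234), with 2 sGC animals above every control. Its log2 fold change of 0.07 had a 95% interval of -0.03 to 0.16 and an adjusted p of 0.469.

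Over the 9 subunits in F3, 8 log2 fold changes were below 0 and 1 was above, while 48.2% of all genes tested were below 0. Their median was -0.09, where the median of all genes was 0.00. An unadjusted p below 0.05 was reached by 4 of 9 subunits, GRIA1, GRIA2, GRIA3 and GRIK4, and by 18.6% of all genes tested. Values of several subunits varied together between animals, so that these 9 directions are not independent of each other.

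**Figure D1:**
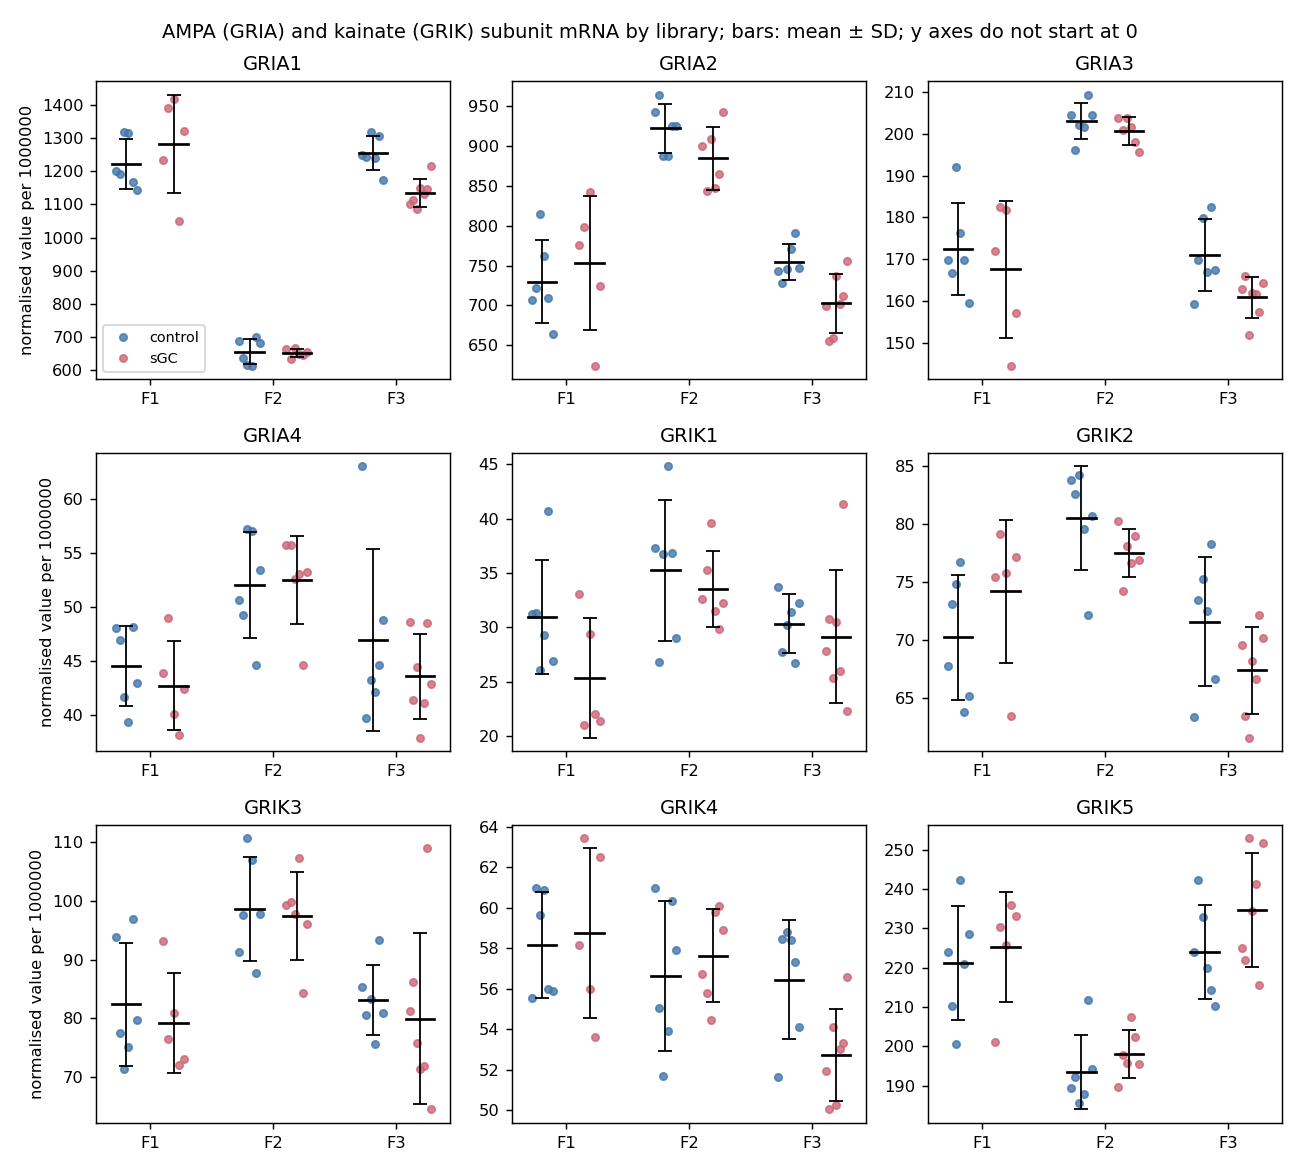
Normalised value per 1000000 (y axis, not starting at 0) of each subunit by generation (x axis), with 1 point per animal, control in blue and sGC in red, and bars for the mean ± SD. In F3 6 of 7 GRIA1 points of sGC animals lie below all control points, while the groups overlap for every subunit; F2 levels of GRIA1 stand near 656 in controls.

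In F1, in animals exposed in utero, none of the 9 subunits passed the test in limma, and none had an unadjusted p below 0.05, where 0.791% of all 11381 genes tested passed and 16.7% had an unadjusted p below 0.05. The lowest p-value belonged to GRIK1. Its F1 control values ran from 26.1 to 40.7 (median 30.3), and the 5 sGC animals gave 33.1, 21.02, 29.4, 22.04 and 21.4. Of these, 3 lay below every control, and the other two lay inside the control range. The means were 30.9 ± 5.24 (SD, n = 6) and 25.4 ± 5.51 (SD, n = 5), with a log2 fold change of -0.29 (SE 0.136, 95% interval -0.58 to 0.00) and an adjusted p of 0.306.

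GRIA1 in F1 ran from 1143 to 1317 in controls (median 1196), and the 5 sGC animals gave 1234, 1389.5, 1418, 1049 and 1321. Of these, 3 lay above every control and sGC animal 4 lay below every control. The log2 fold change was 0.06 (95% interval -0.11 to 0.24, adjusted p = 0.739). The same sGC animal 4 gave the lowest value of its group for GRIA2 (624), GRIA3 (145), GRIA4 (38.1), GRIK2 (63.4), GRIK3 (72.1) and GRIK4 (53.6). Its GRIK5 value (236) was the highest of the group. In that animal the summed value of 9 astrocyte markers was 17226, where the other F1 sGC animals gave 10829 to 14071 and F1 controls 9597 to 12408. The summed value of the excitatory neuron markers was also highest there, at 12284.5, beside 9795 to 11310 in the other F1 sGC animals. The pan-neuronal sum was lowest, at 9063 beside 9716 to 10674. The part of these markers in the subunit values was not tested. Without sGC animal 4 the log2 fold change of GRIA1 was 0.13 (adjusted p = 0.233), and without sGC animal 3, the highest, it was 0.02 (adjusted p = 0.927).

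The remaining F1 differences were small. Log2 fold changes were 0.04 for GRIA2, -0.04 for GRIA3, -0.06 for GRIA4, 0.08 for GRIK2, -0.05 for GRIK3, 0.01 for GRIK4 and 0.03 for GRIK5. In all, 4 subunits were lower and 5 higher, with a median of 0.01, and 51.3% of all genes were below 0.

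In F2, the grandchildren of treated animals, none of the 9 subunits passed the test in limma, none had an unadjusted p below 0.05, and 0 of 11414 genes were called (5.28% had an unadjusted p below 0.05). GRIA2 gave the smallest p-value, with 887 to 965 in controls (median 925) and 843 to 943 in sGC animals (median 883). Of 6 sGC animals 3 lay below every control, and the log2 fold change was -0.06 (95% interval -0.14 to 0.01, adjusted p = 0.901). GRIA1 gave 614 to 700 in F2 controls (median 660) and 635 to 666 in F2 sGC animals (median 652). Here the sGC values lay wholly inside the control range, and the log2 fold change was -0.01 (95% interval -0.08 to 0.07). Log2 fold changes of the other 7 subunits ran from -0.06 (GRIK1) to 0.03 (GRIK5), and 6 of 9 were below 0, beside 50.6% of all genes.

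**Figure D2:**
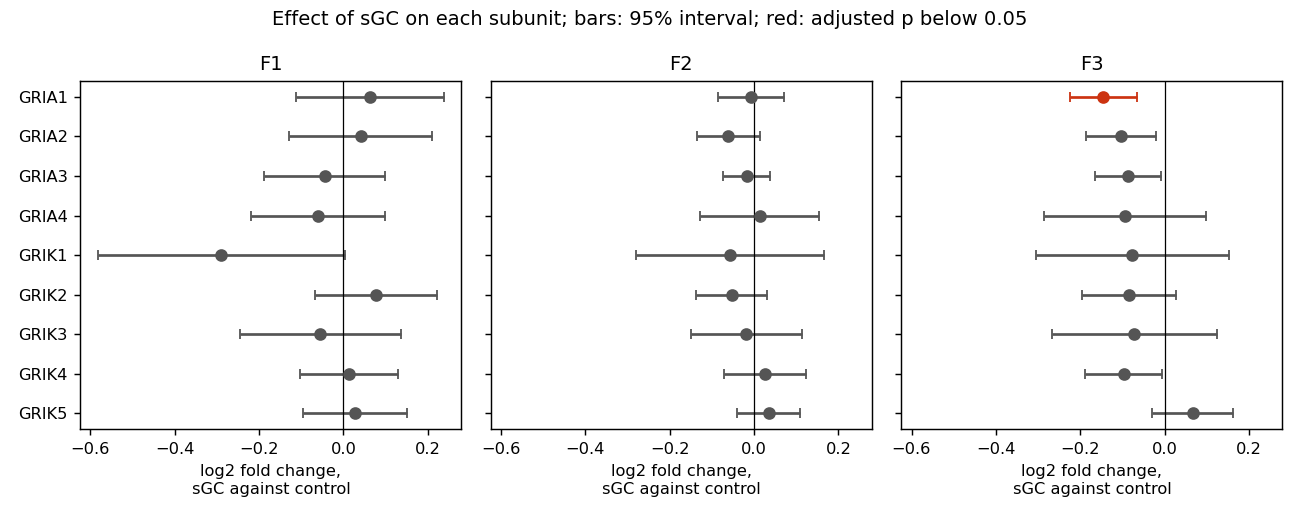
Log2 fold change of sGC against control (x axis) for each subunit (y axis) in F1, F2 and F3, with 95% intervals as bars and differences with an adjusted p below 0.05 in red. Only GRIA1 in F3, at -0.15, is red; 8 of 9 points in F3 lie below 0.

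Whether the effect of sGC differed between generations was tested as an interaction over all 36 libraries, which compares differences made within each table. For GRIA1 the F3 difference was lower than the F1 difference by 0.21 on the log2 scale (value -0.21, SE 0.0761, 95% interval -0.36 to -0.05), with an adjusted p of 0.355 in limma. GRIK2 gave -0.16 (adjusted p = 0.476) and GRIA2 gave -0.14 (adjusted p = 0.510). None of the 9 subunits passed in any of the 3 interactions, and 0% of the 11390 genes tested did. An unadjusted p below 0.05 for F3 against F1 was reached by 2 of 9 subunits, GRIA1 and GRIK2, and by 10.5% of all genes. On leaving out 1 animal at a time, GRIA1 passed this interaction in 1 of 24 fits, the one without F1 sGC animal 4. That animal had the lowest GRIA1 value of F1 sGC, so leaving it out widens the difference. Without F1 sGC animal 3, the highest, the GRIA1 value was -0.17 (adjusted p = 0.583 in limma). Without F1 sGC animal 4 it was -0.28 (adjusted p = 0.0142 in limma), and GRIA1 was 1 of 264 genes that then passed, 2.32% of 11403 tested. Without the libraries numbered 32 to 36, of which that animal's is one, GRIA1 (-0.28, adjusted p = 0.0150) and GRIA2 (-0.25, adjusted p = 0.0190) were among 397 genes that passed, 3.48% of 11419 tested. Of the F1 sGC group, only animals 1, 2 and 3 were left in that fit.

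The mean sGC effect over the 3 generations passed the test for none of the 9 subunits in limma, and none had an unadjusted p below 0.05. Among all genes 4.96% passed and 22.1% had an unadjusted p below 0.05. The mean effects ran from -0.14 for GRIK1 (95% interval -0.29 to 0.01, adjusted p = 0.268) to 0.04 for GRIK5 (95% interval -0.01 to 0.10, adjusted p = 0.373).

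The share of each subunit in the deposited values of its own family was also compared. Because longer transcripts give more reads and transcript lengths were not used here, a share is not an abundance, and only the same subunit is compared between groups. GRIA1 made up 56.3% ± 0.933 (SD, n = 6) of AMPA subunit values in F3 controls and 55.6% ± 0.542 (SD, n = 7) in F3 sGC animals. GRIA2 made up 33.9% ± 0.880 and 34.4% ± 0.692 in the same groups. GRIA1 is itself part of the sum that its share is taken from, so a change in GRIA1 alone moves its share less than its level. The shares are therefore not weighed against the levels. The summed value of the 4 AMPA subunits was 2138 to 2325 in F3 controls (median 2216) and 1940 to 2177 in F3 sGC animals (median 2037). The summed value of the 5 kainate subunits was 444 to 482 in F3 controls (median 464) and 452 to 491 in F3 sGC animals (median 459). GRIK5 took 48.1% ± 1.55 (SD, n = 6) of this sum in controls and 50.6% ± 3.56 (SD, n = 7) in sGC animals, and GRIK4 took 12.1% ± 0.478 and 11.4% ± 0.436.

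Levels in the F2 table stood apart from those of F1 and F3. The GRIA1 control mean was 1223 ± 75.5 (SD, n = 6) in F1, 656 ± 38.2 (SD, n = 6) in F2 and 1255 ± 52.3 (SD, n = 6) in F3. GRIA2 went the other way, with 730 ± 52.0, 922 ± 30.5 and 755 ± 22.6. The log2 ratio of GRIA1 to GRIA2 within a library was 0.74 ± 0.0388 in F1 controls, -0.49 ± 0.0716 in F2 controls and 0.73 ± 0.0609 in F3 controls, and each F2 library lay below every F1 and F3 library. GRIK5 was also lower in F2 controls (193, beside 221 in F1 and 224 in F3), and GRIA3, GRIA4, GRIK1, GRIK2 and GRIK3 were higher. The order of the 6 GRIA1 group means was F1 sGC, F3 control, F1 control, F3 sGC, F2 control and F2 sGC, and within F1 and within F2 the neighbouring groups overlapped. The tables were made and adjusted separately, and library numbers follow the generations, so that generation and table processing cannot be told apart and levels were not tested between generations.

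The spread between animals of 1 group was not alike for all subunits. The SD of the log2 value within groups was highest for GRIK1, at 0.259 in F1, 0.213 in F2 and 0.222 in F3, where the median over all genes was 0.110, 0.0921 and 0.101. GRIK3 (0.165, 0.121 and 0.192) and GRIA4 (0.128, 0.127 and 0.186) also varied more than the median gene in every generation. For GRIA1 the SD was 0.134 in F1, 0.0622 in F2 and 0.0565 in F3. GRIA3 in F2 had an SD of 0.0274, the lowest of these values.

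The subunits fell into sets when the deviation of each animal from its own group mean was compared between genes, over 36 libraries. GRIA1, GRIA2, GRIA3 and GRIK2 varied together, with Pearson's r of 0.80 for GRIA1 and GRIA2 (Spearman's rho 0.70), 0.76 for GRIA1 and GRIA3 (rho 0.65), 0.73 for GRIA2 and GRIA3 (rho 0.52) and 0.59 to 0.64 for each of these with GRIK2. GRIK4 went with GRIA1 (r = 0.59, rho 0.54). GRIK1 and GRIK3 went together (r = 0.64, rho 0.49), GRIA4 went with GRIK3 (r = 0.52, rho 0.64), and these 3 were weakly negative against GRIA1, GRIA4 with r = -0.12 (rho -0.29), GRIK1 with r = -0.12 (rho -0.19) and GRIK3 with r = -0.20 (rho -0.33). Without F3 sGC animal 6, r was 0.54 for GRIK1 and GRIK3 and -0.25 for GRIA1 and GRIK3. F1 sGC animal 4 had the largest deviation of GRIA1 (-0.28), GRIA2 (-0.26), GRIA3 (-0.21) and GRIK2 (-0.22). It weighs on each r among these subunits, and r was not computed without that animal. GRIK5 had its highest r, 0.30, with GRIK4. It varied against GRIK3 (r = -0.47, rho -0.42), GRIK1 (r = -0.44, rho -0.43) and GRIA4 (r = -0.37, rho -0.41). GRIK4 also varied against GRIK3 (r = -0.39, rho -0.49) and GRIK1 (r = -0.37, rho -0.42). These values describe animals whose libraries share their scaling and the removed factor, and carry no test.

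**Figure D3:**
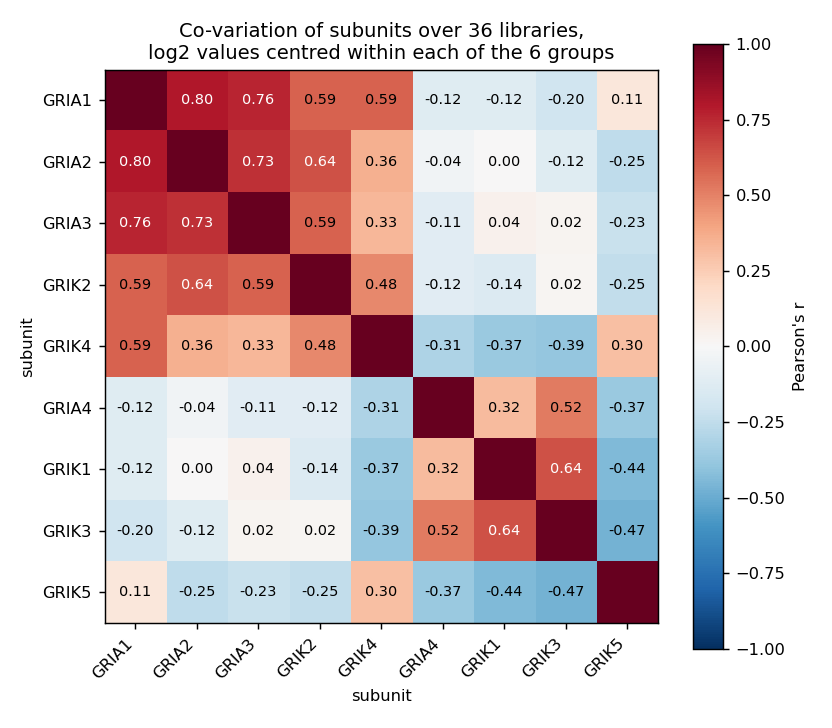
Pearson's r between subunits (both axes) of log2 values centred within each of the 6 groups, over 36 libraries, on a colour scale from -1 (blue) to 1 (red). GRIA1, GRIA2, GRIA3, GRIK2 and GRIK4 form one block of positive values, up to 0.80, and GRIA4, GRIK1 and GRIK3 another, up to 0.64.

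The genes whose deviations were most like those of a subunit were found among 11161 genes tested in all 3 generations, for which the median r lay near 0. For GRIA1 they were ENC1 (r = 0.87, rho 0.83), PLPPR4 (r = 0.84, rho 0.70) and SYT1 (r = 0.82, rho 0.62). For GRIA2 they were CNKSR2 (r = 0.86, rho 0.80), ATP2B1 (r = 0.83, rho 0.66) and TAF13 (r = 0.81, rho 0.58). For GRIA3 they were MET (r = 0.87, rho 0.86), RTN4 (r = 0.85, rho 0.74) and PLPPR4 (r = 0.83, rho 0.71). GRIA4 was most like MEF2C (r = 0.79), DKK3 (0.76) and PTPRT (0.74). Among kainate subunits, GRIK1 was most like TMEM163 (r = 0.74), VWC2L (0.68) and PIGH (0.66), GRIK2 like ROBO1 (0.85), ZNF280B (0.81) and SCN7A (0.77), and GRIK3 like LIPE (0.86), AMOTL2 (0.84) and SLC12A2 (0.83). GRIK4 was most like FGFR1 (r = 0.81), ADRA1D (0.78) and SLC7A4 (0.75), and GRIK5 like ARHGEF25 (0.82), PPP1R9B (0.77) and SEPT9 (0.75). For GRIA4 and the kainate subunits rho ran from 0.63 (GRIK1 and PIGH) to 0.83 (GRIK4 and FGFR1). F1 sGC animal 4 weighs on the r of GRIA1, GRIA2, GRIA3 and GRIK2 here too, and r was not computed without that animal.

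Deviations of the subunits were also set beside those of cell type markers, taken as the mean log2 value over each list. By r, GRIA1 (r = 0.70, rho 0.52) and GRIA3 (r = 0.59, rho 0.46) varied most with 10 pan-neuronal markers. GRIK2 (r = 0.47, rho 0.40), GRIK4 (r = 0.47, rho 0.48) and GRIA2 (r = 0.47, rho 0.19) came next. Of all genes, 98.5% had a lower r with these markers than GRIA1, and 91.7% a lower r than GRIA2. GRIA4 varied with 9 inhibitory neuron markers (r = 0.57, rho 0.63), which GRIA1 and GRIA2 did not follow (r = 0.02 and 0.04). GRIK3 varied with 5 oligodendrocyte markers (r = 0.74, rho 0.64) and 6 oligodendrocyte precursor markers (r = 0.72, rho 0.65). GRIA3 varied against 9 astrocyte markers (r = -0.67, rho -0.50), 7 endothelial markers (r = -0.77, rho -0.76) and 6 microglial markers (r = -0.75, rho -0.62). With the microglial markers r was also -0.56 for GRIA1 (rho -0.37), -0.54 for GRIA2 (rho -0.32) and -0.56 for GRIK2 (rho -0.45). With the astrocyte markers GRIA1 gave r = -0.45 but a rho of only -0.12. With 9 markers of striatum, thalamus and neocortex, r was 0.66 for GRIK3 (rho 0.59), 0.58 for GRIK1 (rho 0.48) and 0.49 for GRIA4 (rho 0.56). For the other subunits it was negative, from -0.38 for GRIA3 (rho -0.41) to -0.50 for GRIA1 (rho -0.63). The part of neighbouring tissue in these values was not tested. These are descriptions over 36 libraries. F1 sGC animal 4, low in GRIA1, GRIA2, GRIA3 and GRIK2, had the highest astrocyte (17226), endothelial (459.5) and microglial (325.7) sums of its group. It weighs on each r between these subunits and markers, and r was not computed without that animal.

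Marker levels moved with sGC in F3 beside GRIA1. Of 10 pan-neuronal markers, 9 were lower in F3 sGC animals and 7 were called lower, and the median of the list was -0.17 on the log2 scale. SYP, a synaptic vesicle protein, gave -0.21 (SE 0.0322, adjusted p = 0.0065), SYT1, the calcium sensor of release, -0.19 (adjusted p = 0.0181), NEFM, a neurofilament, -0.22 (adjusted p = 0.0197) and ENO2, the neuronal enolase, -0.16 (adjusted p = 0.0197), all in limma. Their summed value was 9496 to 10292 in F3 controls (median 10078) and 8993 to 9686 in F3 sGC animals (median 9088). Of 9 inhibitory neuron markers 8 were lower and 2 were called, the GABA-synthesising enzymes GAD1 (-0.25, adjusted p = 0.0270) and GAD2 (-0.20, adjusted p = 0.0211), and their summed value was 783 to 890 in controls (median 858) and 702 to 809 in sGC animals (median 769).

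Astrocyte markers moved the opposite way. All 9 were higher in F3 sGC animals (list median 0.16), and 2 were called higher, S100B (0.23, adjusted p = 0.0256) and the glutamate transporter SLC1A2 (0.24, adjusted p = 0.0461). Their summed value was 10617 to 11666 in F3 controls (median 10881) and 11956 to 13285 in F3 sGC animals (median 12183). Of 9 excitatory neuron markers 8 were lower in F3 sGC animals, none was called, and their median was -0.06. Without the libraries numbered 32 to 36, 5 of 9 were lower, with a median of -0.03. The summed value of this list went the other way, with a median of 10168 in controls and 11200 in sGC animals, since its most abundant gene, CAMK2A, had a log2 fold change of 0.17 (adjusted p = 0.264). In F1 all 9 astrocyte markers were higher (median 0.23) and none was called, and in F2 7 of 9 were higher (median 0.03). The F1 shift was smaller without F1 sGC animal 4 (8 of 9 higher, median 0.13). It was smaller again without the F1 libraries numbered 32 to 36 (7 of 9 higher, median 0.07). Without F3 sGC animal 5, 7 of 10 pan-neuronal markers and 2 of 9 inhibitory neuron markers were again called lower, and 1 of 9 astrocyte markers higher, as SLC1A2 did not pass (adjusted p = 0.0501). Without the libraries numbered 32 to 36, 6 of 10 pan-neuronal markers were called lower, as SNAP25 did not pass (adjusted p = 0.0566), with 3 of 9 inhibitory neuron markers lower and 1 of 9 astrocyte markers higher, and SLC1A2 at an adjusted p of 0.0717. The part of these markers in the GRIA1 difference was not tested.

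Genes that assemble, anchor and modify the receptors were described from the same fits. Of 17 AMPA auxiliary subunits and assembly factors tested in F3, 11 were lower and 6 higher, with a median log2 fold change of -0.06, and 1 was called. That gene, CACNG4, a transmembrane regulatory protein of AMPA receptors, was higher, at 67.8 ± 2.67 (SD, n = 6) in controls and 76.5 ± 2.44 (SD, n = 7) after sGC. The log2 difference was 0.17 (adjusted p = 0.0186 in limma) and all 7 sGC animals lay above the control mean. Both kainate auxiliary subunits were lower in F3, NETO1 by a log2 fold change of -0.12 (adjusted p = 0.137) and NETO2 by -0.11 (adjusted p = 0.159), and neither passed the test.

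Of 26 anchoring and trafficking genes in F3, 17 were lower and 9 higher, with a median of -0.05, and 2 were called lower. DLG3, a scaffold that binds glutamate receptors, gave 199 ± 4.22 (SD, n = 6) in controls and 177 ± 6.03 (SD, n = 7) after sGC, which is -0.17 on the log2 scale (adjusted p = 0.0127). LRRTM1, a postsynaptic adhesion protein, gave 113 ± 5.04 in controls against 101.8 ± 3.30, with -0.16 on the log2 scale (adjusted p = 0.0279). The editing enzyme ADAR was lower in F3 (-0.13, adjusted p = 0.0266), while ADARB1, which edits the GRIA2 transcript, was higher in F1, at 62.0 ± 5.04 (SD, n = 6) and 83.6 ± 9.85 (SD, n = 5), which is 0.43 on the log2 scale (adjusted p = 0.0298). None of 12 kinases and phosphatases tested in F3 was called (median -0.05).

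Other glutamate receptors and transporters showed few calls. None of 8 NMDA and delta subunits passed in F1, F2 or F3, with medians of 0.10, -0.01 and -0.02. The smallest adjusted p of this list belonged to GRIN2A in F1 (0.26, adjusted p = 0.105 in limma) and to GRIN1 in F3 (-0.16, adjusted p = 0.0815). Of 7 metabotropic receptors and HOMER proteins, 2 were called in F1, both higher, GRM5 at 0.43 (adjusted p = 0.0216) and HOMER2, which binds it, at 0.32 (adjusted p = 0.0406). In F3 the neuronal glutamate transporter SLC1A1 was lower (-0.17, adjusted p = 0.0391) and SLC1A2 was higher, as given above. Without F3 sGC animal 5 the adjusted p of SLC1A1 was 0.0566, and without the libraries numbered 32 to 36 that of HOMER2 was 0.0710. No gene of any of these lists was called in F2.

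**Figure D4:**
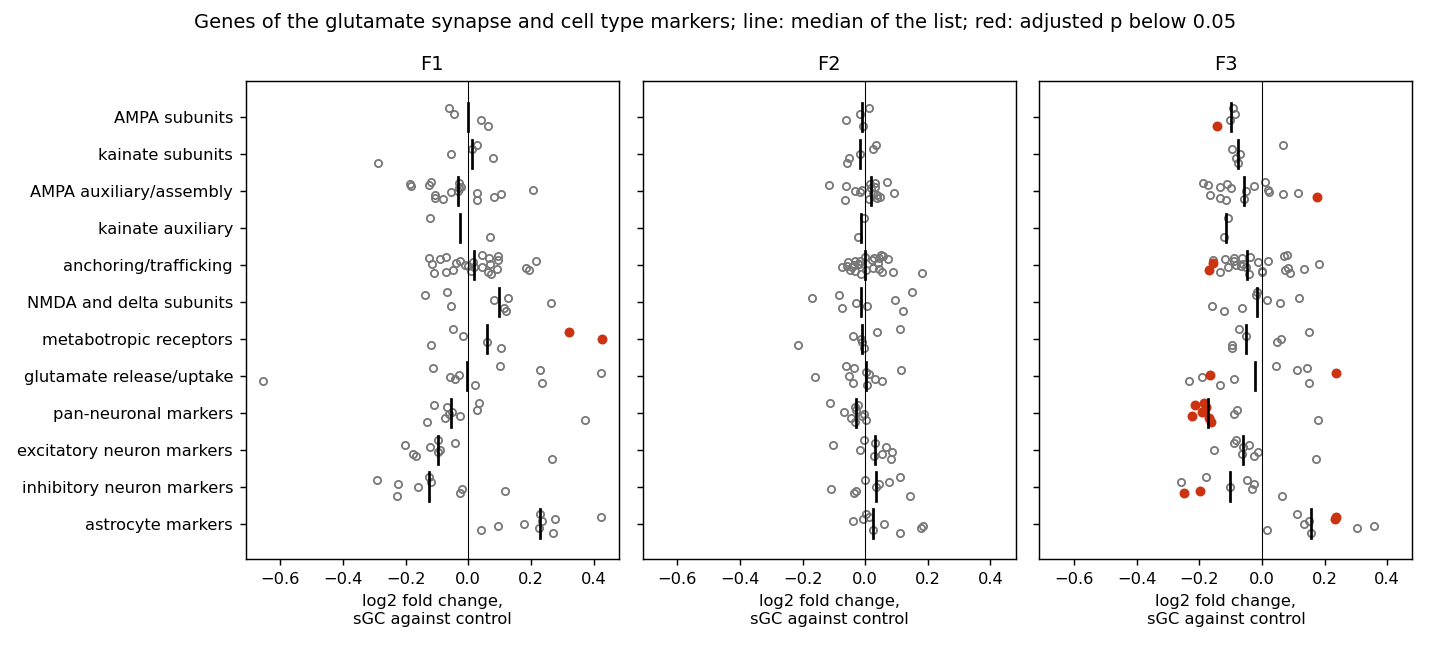
Log2 fold change of sGC against control (x axis) for the subunits, other glutamate synapse genes and cell type markers (y axis, 1 point per gene) in F1, F2 and F3, with the list median as a line and an adjusted p below 0.05 in red. In F3 the pan-neuronal median lies at -0.17, the AMPA subunit median at -0.10 and the astrocyte median at 0.16.

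Reads were single and 51 bases long, so that reads from stretches shared by related subunits may have been split between them, and the counter and its strand setting are not given in the sources used here.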

How the data were processed

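Hippocampal RNA of 36 animals was grouped by generation and treatment from the sample labels. The deposited tables hold whole numbers per gene and library; because 1 factor had been removed from them they are treated as a score of the authors, not as counts. TopHat2 and edgeR are named in the submitters' processing notes, and no source used here gives the counter or the step that removed the factor. The authors' own fold changes, average levels, test statistics, p-values and dispersions in these tables, and the methylation tables, were not used.

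The planned count test was therefore replaced. Values were scaled by trimmed means of M values, filtered for low values, and fitted per generation with limma 3.58.1 in R 4.3.3 on log2(value per 1000000 of the library total + 0.5), so that changes of low genes are understated. The combination of libraries that carries the removed factor was a term of each fit, made orthogonal to the others. It was left out where animals holding over 50% of its squared weight were not in the fit. P-values were adjusted over all genes tested (Benjamini-Hochberg, threshold 0.05). Interactions and mean effects used all 36 libraries. Standard errors and intervals (95%) cover the spread between these adjusted libraries only. Deposited totals are not the depth before adjustment, which is unknown. Figures were drawn with Python 3.11.15 and matplotlib 3.10.9.

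All 9 subunits are named. From each list of other genes, up to 4 called genes were named, by smallest adjusted p, and likeness is the highest Pearson's r of group-centred log2 values. NETO1, NETO2, CAMK2A, PROX1, GRIN2A and GRIN1 were named after their values were seen. Members, lists and tests were chosen with earlier results of these data known. The fits were also run on simulated data from which 1 factor, built unrelated to treatment, had been removed. The outcome is not given here and the step behind the deposited values is unknown, so that run does not vouch for the p-values. In the labels no number marks a shared litter or day, and the replicate numbers did not pair the animals.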

Additional observations from a re-analysis of the deposited data

Results flagged for a closer look

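Some values of single animals lay far from the rest of their group, by a gap above Dixon's critical value. These were 5 of 54 groups of values tested, and chance alone marks a small share of groups. GRIA4 in F2 sGC animal 5 was low at a normalised value of 44.6, with the next lowest at 52.5. GRIK1 in F1 control animal 5 was high at 40.7, with the next highest at 31.3, and without that animal the F1 log2 fold change of GRIK1 moved from -0.29 to -0.21. GRIK2 in F1 sGC animal 4 was low at 63.4, with the next lowest at 75.4. GRIK5 in F1 sGC animal 1 was low at 201, with the next lowest at 226. GRIK5 in F2 control animal 5 was high at 211.9, with the next highest at 194.2.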

How the results depend on the processing

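The GRIA1 difference in F3 kept its direction in every fit, with a log2 fold change between -0.16 and -0.13, and it was also called under RLE scaling, upper-quartile scaling, pseudocounts of 2 and 0.1, and without the removed factor as a term. The number of subunits called in F3 became 0 with no filter on low values (GRIA1 adjusted p = 0.0507), with all 3 generations fitted together (0.128) and without the sGC libraries numbered 32 to 36 (0.0684), all in limma. Leaving out each animal in turn gave 0 to 1 called subunits in F3. Without the libraries numbered 32 to 36, 2 subunits and 397 of all genes passed the interaction of F3 against F1, and leaving out single animals gave 0 to 1 subunits and 0 to 264 genes. In F1, without those libraries, log2 fold changes that had not passed the test changed sign, to 0.051 for GRIA3, 0.021 for GRIK3 and -0.016 for GRIK5.

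Other sign changes came on leaving out 1 animal, among differences that did not pass the test. F1 log2 fold changes ran from -0.0055 to 0.11 for GRIA2, -0.080 to 0.0073 for GRIA3, -0.019 to 0.045 for GRIK4 and -0.0045 to 0.065 for GRIK5. F2 values ran from -0.025 to 0.013 for GRIA1, -0.030 to 0.059 for GRIA4, -0.13 to 0.015 for GRIK1 and -0.051 to 0.023 for GRIK3. The cause was not tested.

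With the replicate number as a block, 0 subunits were called in F3, GRIA1 had a log2 fold change of -0.16 (adjusted p = 0.113), and calls over all genes went from 368 to 0 in F3 and from 90 to 76 in F1. The numbers do not pair the animals: correlations of same-numbered animals ran from -0.07 to 0.32 in F1, -0.31 to 0.19 in F2 and -0.31 to 0.03 in F3.

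Calls over all genes in F3 were 15 with all 3 generations fitted together, 574 without the factor as a term, and 190 to 424 on leaving out 1 animal, and in F1 446, 229 and 11 to 148. Those of the mean effect were 986 without the factor as a term, 100 without the libraries numbered 32 to 36, and 308 to 895 on leaving out 1 animal. The likelihood ratio test, DESeq2 and the control contrasts between generations were planned and not run, since the values are not counts and the tables were adjusted separately. Pseudocounts, the factor term, the interaction and mean without F2, and lists without single libraries were chosen after seeing the data. The depth of the sequenced counts is unknown, which limits any statement on low genes.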

Other observations

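Other cell type markers gave few calls. In F1 all 6 meningeal fibroblast and choroid plexus markers tested were lower in sGC animals (median log2 fold change -0.55), and LUM, a matrix proteoglycan, was called (-0.47, adjusted p = 0.0498 in limma). Without the libraries numbered 32 to 36 its adjusted p was 0.0565. All 5 oligodendrocyte markers tested in F1 were lower (median -0.28) and none was called, while in F3 4 of 5 were higher (median 0.06). Of 7 microglial markers 6 were higher in both F1 (median 0.17) and F3 (median 0.11), and none was called. Of 9 markers of striatum, thalamus and neocortex, RORB was called higher in F3 (0.19, adjusted p = 0.0479), but not without F3 sGC animal 5 (adjusted p = 0.0581). Dentate granule cell, oligodendrocyte precursor and endothelial markers gave no call in F1 or F3, and no marker was called in F2.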
